A study of Mus musculus with 15 samples.

Results

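The genes described here are 58 transcription factor genes of embryonic patterning and organ formation that are known as Polycomb targets in mouse embryonic stem cells. The list goes by gene symbol, its rule uses no measured value, and each gene was found by the symbol of its probe set. It was nevertheless drawn up with earlier results of these data known. All 58 were present, each with 1 probe set, among 21212 probe sets and 18784 genes with a symbol. The list comprised 16 homeobox genes of mixed families, 8 basic helix-loop-helix (bHLH) genes, 6 LIM homeobox genes, 5 T-box genes, 4 Pax, 4 forkhead and 4 Irx genes, 3 each of the Nkx, Sox and Dlx families, and single GATA and zinc finger genes. Binding by Polycomb was not measured on these arrays, so that part of the name rests on the choice of genes.

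Polycomb group proteins keep developmental genes silent in stem cells. Polycomb repressive complex 2 methylates lysine 27 of histone H3, and Polycomb repressive complex 1 holds the modified chromatin and ubiquitinates histone H2A. Many of their targets are master regulators of a tissue whose promoters lie in CpG islands, and in stem cells these promoters also carry an activating mark, a state called bivalent. Tet1 is a dioxygenase that oxidises methylated cytosine and is found at CpG-rich promoters, and Sin3A holds together a co-repressor complex that removes acetyl groups from histones.

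RNA was measured on 15 Affymetrix arrays, 1 per sample, of E14TG2a.4 cells, a feeder-independent mouse embryonic stem cell line, at low passage and grown with leukaemia inhibitory factor. All cells, controls included, had been transduced with a lentivirus carrying a short hairpin RNA and selected with puromycin (2 µg per ml) for 72 hours from 36 hours after transduction. The Tet1 set held shTet1#4, shTet1#5 and a scrambled hairpin, and the Sin3A set held shSin3A and its own scrambled hairpin, with 3 arrays in each of the 5 groups. Selected cells were a mixture of transduced cells rather than 1 clone. The labels do not tell whether replicate arrays had cultures of their own, and every p-value given here is therefore set by array-to-array spread that could be technical alone.

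Tet1 was 3.43-fold lower with shTet1#4 and 4.30-fold lower with shTet1#5, and Sin3a was 2.93-fold lower with shSin3A. Each target also moved in the other knockdown: Sin3a changed by -0.27 ± 0.06 and -0.24 ± 0.06 on the log2 scale with shTet1#4 and shTet1#5 (SE, limma adjusted p = 0.0147 and 0.0219), and Tet1 by 0.31 ± 0.06 with shSin3A (adjusted p = 0.00679). Levels are log2 expression values, whose array medians were 6.93 to 6.98 in the Tet1 set and 8.01 to 8.02 in the Sin3A set. Because of that offset no level is set against one from the other set except as a rank within the array. In the Tet1 set, scrambled replicate 2 and shTet1#4 replicate 2 stood apart, with deviations from their groups that correlated at r = 0.517 across probe sets, against -0.455 to 0.281 for other pairs of arrays. All 10 stem cell markers, Pou5f1, Nanog and Sox2 among them, lay above the array median in every array of all 5 groups. Of 12 primitive endoderm markers, 2 lay above it in all 3 scrambled arrays of the Tet1 set, as did 4 of 13 fibroblast, 6 of 12 trophectoderm and 6 of 8 neural markers.

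In control stem cells most of the 58 genes were dim but not at the bottom of the array. In the scrambled arrays of the Tet1 set 12 of the 58 (20.7%) lay above the array median in all 3 arrays, 41 lay below it in all 3, and 5 were mixed. The median member stood at the 40.6th percentile, with quartiles at 31.7 and 48.8, Foxc2 lowest and Nkx2-9 highest, at 69.5. The scrambled arrays of the Sin3A set gave a similar picture, with 12 above, 43 below and 3 mixed, and a median at the 40.8th percentile. In both scrambled groups the same 11 genes were above the median, namely Pax8, Nkx2-5, Nkx2-9, Sox8, Sox21, Irx2, Otp, Emx1, Wt1, Hand2 and Vax1. Tbx2 was added in the Tet1 set and Tbx4 in the Sin3A set, and 45 genes were above it in neither. An array signal of a dim probe set can be background, and a signal from a few cells cannot be told apart from a low level in all cells, here or in the comparisons below.

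**Figure D1:**
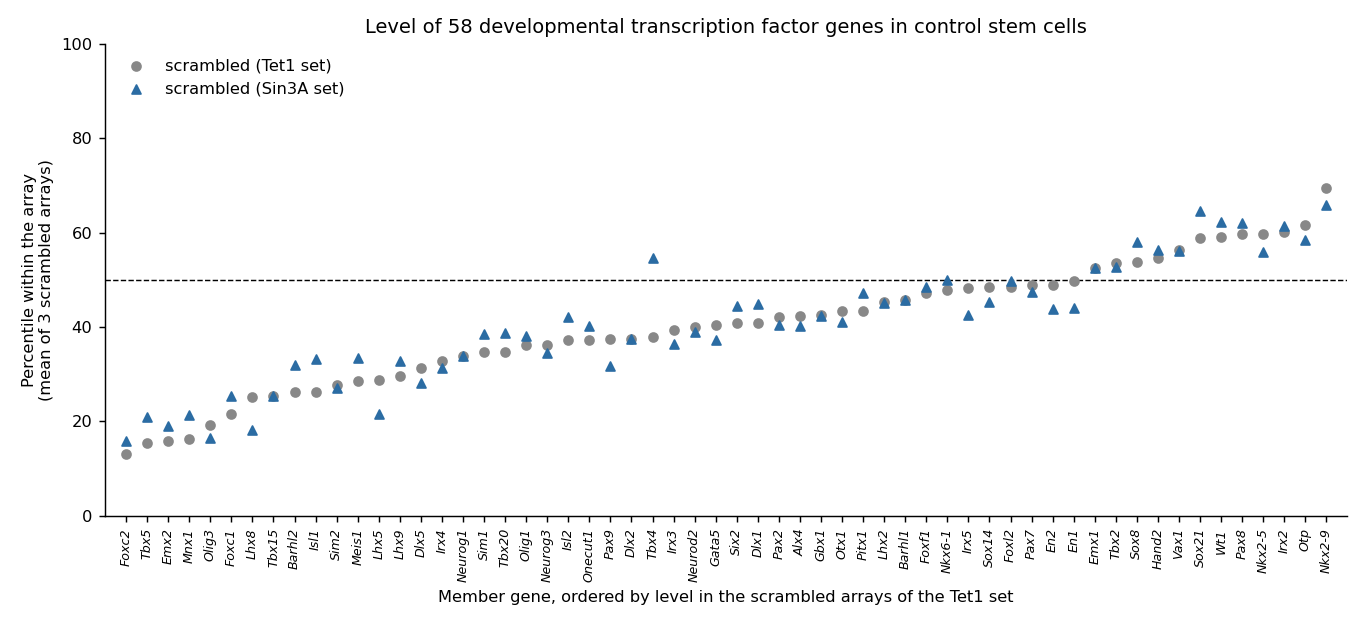
Percentile of each of the 58 genes within the array (y axis, mean of 3 scrambled arrays) for the Tet1 set (grey circles) and the Sin3A set (blue triangles), with the array median dashed. Most genes lie below the median in both sets, Nkx2-9 is highest in both, and Tbx4 is the gene whose place differs most between the sets.

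The brightest member was Nkx2-9, a homeobox gene of the ventral neural tube, at 8.31, 8.33 and 8.26 in the scrambled arrays of the Tet1 set. Otp, a regulator of hypothalamic neurons, followed at a mean of 7.71 ± 0.23 (SD, n = 3), then Irx2 at 7.62 ± 0.08, Nkx2-5, a regulator of the heart, at 7.60 ± 0.24 and Pax8 at 7.59 ± 0.11. These last 4 differed from each other by less than their spread, and probe sets of different genes can also differ in brightness through their probes. The dimmest was Foxc2, a factor of lymph vessels and mesenchyme, at 4.57, 4.57 and 4.30. Tbx5 of the heart and forelimb (4.75 ± 0.03), Emx2 of the cerebral cortex (4.79 ± 0.10), Mnx1 of motor neurons (4.82 ± 0.04) and Olig3 of the dorsal neural tube (5.06 ± 0.24) came next, with overlapping or nearly touching ranges. Tbx4 lay at the 37.9th percentile in the Tet1 set and at the 54.6th in the Sin3A set, the widest gap among the 58.

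Many of the promoters were rich in CG. Polycomb targets often have promoters in CpG islands, as given above, so the choice of genes may have brought this in. RefSeq promoter sequences (build GRCm38.p6) were at hand for 42 of the 58 genes, with 46 promoters in all, and the 250 bases upstream of each start were read. For 27 of the 46 the start lay at the outer edge of the gene in the gene annotation. The other starts lay elsewhere, so a gene may have a further promoter that was not read. The dinucleotide CG was searched, which reads the same on both strands. The 46 promoters held a median of 18.5 CG dinucleotides (4 to 36) and 65.2% G and C, while all 32851 promoters of the table held a median of 6 CG and 52.4% G and C. The ratio of CG observed to CG expected from base composition had a median of 0.75 in the members and 0.37 in all promoters. Of the 46, 29 (63.0%) had a ratio of at least 0.6 and at least 50% G and C, a usual description of a CpG island, against 31.0% of all promoters. All 46 held at least 1 CG, as did 92.1% of all promoters.

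**Figure D2:**
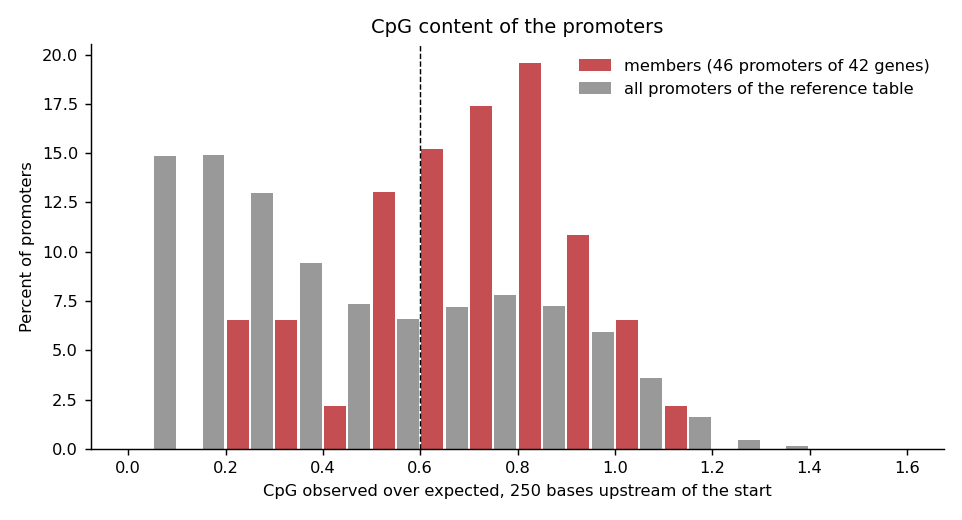
Share of promoters (y axis, percent) by the ratio of observed to expected CG dinucleotides in the 250 upstream bases (x axis), for 46 promoters of 42 members (red) and all 32851 promoters of the reference table (grey), with the 0.6 line dashed. The members pile up between 0.5 and 1.0, while the tallest grey bars are below 0.3.

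The promoters of the 9 genes that passed the test in a knockdown (below) and have a promoter in the table are shown. That of Barhl2, a homeobox gene of neurons with the most CG of all 46 and no call, stands beside them. They run 5′ to 3′ along the gene's strand, from 250 bases upstream to the base before the start, with each CG in capitals. The first 5 rose with a Tet1 hairpin and the next 4 fell with shSin3A, as Neurog3 and Pax8 also did.
Pax8, chr2:24475600-24475849, minus strand: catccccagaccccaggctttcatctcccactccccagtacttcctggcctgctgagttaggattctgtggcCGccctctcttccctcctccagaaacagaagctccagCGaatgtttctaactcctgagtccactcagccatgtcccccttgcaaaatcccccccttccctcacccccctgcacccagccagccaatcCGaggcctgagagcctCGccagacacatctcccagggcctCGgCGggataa
Neurog3, chr10:62132840-62133089, plus strand: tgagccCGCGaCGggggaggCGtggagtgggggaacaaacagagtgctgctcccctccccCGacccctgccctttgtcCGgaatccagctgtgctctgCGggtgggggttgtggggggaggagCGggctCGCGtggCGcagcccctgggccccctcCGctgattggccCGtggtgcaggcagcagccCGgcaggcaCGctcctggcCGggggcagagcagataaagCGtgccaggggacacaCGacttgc
Irx2, chr13:72628570-72628819, plus strand: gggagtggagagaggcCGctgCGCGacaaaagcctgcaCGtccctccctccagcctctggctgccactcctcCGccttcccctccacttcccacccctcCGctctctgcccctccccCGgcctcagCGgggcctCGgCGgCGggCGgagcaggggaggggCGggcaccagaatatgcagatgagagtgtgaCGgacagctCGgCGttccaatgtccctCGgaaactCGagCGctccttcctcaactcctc
En1, chr1:120602237-120602486, plus strand: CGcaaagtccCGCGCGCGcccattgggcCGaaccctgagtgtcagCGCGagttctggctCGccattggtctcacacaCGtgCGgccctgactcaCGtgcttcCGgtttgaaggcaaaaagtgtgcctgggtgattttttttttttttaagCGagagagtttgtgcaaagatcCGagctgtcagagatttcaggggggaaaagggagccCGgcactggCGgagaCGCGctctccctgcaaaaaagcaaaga
Nkx2-9, chr12:56613285-56613534, minus strand: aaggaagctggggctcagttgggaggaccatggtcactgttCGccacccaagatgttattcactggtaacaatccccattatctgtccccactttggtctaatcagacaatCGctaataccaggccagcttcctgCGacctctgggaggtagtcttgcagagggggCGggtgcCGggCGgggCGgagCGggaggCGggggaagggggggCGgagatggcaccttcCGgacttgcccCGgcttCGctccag
Sox21, chr14:118237031-118237280, minus strand: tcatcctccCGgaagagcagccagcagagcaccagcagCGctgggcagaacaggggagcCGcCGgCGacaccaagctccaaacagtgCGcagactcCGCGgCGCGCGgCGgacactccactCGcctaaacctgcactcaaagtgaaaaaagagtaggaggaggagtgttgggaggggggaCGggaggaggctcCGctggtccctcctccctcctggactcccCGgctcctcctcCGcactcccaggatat
Tbx4, chr11:85896515-85896764, plus strand: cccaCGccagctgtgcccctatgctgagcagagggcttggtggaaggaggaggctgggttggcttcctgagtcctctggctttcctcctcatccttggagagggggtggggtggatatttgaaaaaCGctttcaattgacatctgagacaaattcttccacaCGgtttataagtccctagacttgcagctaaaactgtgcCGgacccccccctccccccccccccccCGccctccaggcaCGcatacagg
Foxc1, chr13:31806396-31806645, plus strand: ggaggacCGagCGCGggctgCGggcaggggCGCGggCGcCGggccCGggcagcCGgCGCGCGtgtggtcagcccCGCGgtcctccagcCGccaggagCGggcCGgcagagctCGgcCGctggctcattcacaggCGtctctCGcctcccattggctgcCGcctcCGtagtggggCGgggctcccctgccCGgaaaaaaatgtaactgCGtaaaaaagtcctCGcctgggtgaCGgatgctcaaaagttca
Olig3, chr10:19356289-19356538, plus strand: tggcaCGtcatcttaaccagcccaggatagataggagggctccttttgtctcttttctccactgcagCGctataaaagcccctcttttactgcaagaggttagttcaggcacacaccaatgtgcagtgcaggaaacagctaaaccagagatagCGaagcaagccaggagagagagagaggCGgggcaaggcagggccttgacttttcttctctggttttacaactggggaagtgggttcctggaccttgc
Barhl2, chr5:106458167-106458416, minus strand: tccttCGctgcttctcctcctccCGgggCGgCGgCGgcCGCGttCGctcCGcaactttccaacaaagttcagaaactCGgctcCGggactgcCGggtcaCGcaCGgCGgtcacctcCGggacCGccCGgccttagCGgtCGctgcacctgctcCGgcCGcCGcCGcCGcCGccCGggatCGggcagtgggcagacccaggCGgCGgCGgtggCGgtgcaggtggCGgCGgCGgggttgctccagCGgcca
Their CG counts were 6 for Pax8, 18 for Neurog3, 19 for Irx2, 19 for En1, 13 for Nkx2-9, 17 for Sox21, 6 for Tbx4, 29 for Foxc1, 4 for Olig3 and 36 for Barhl2. The 9 promoters of genes that passed had a median of 17 CG, with 4 of 9 meeting the island description, and the 37 promoters of genes that passed in no knockdown had a median of 21, with 25 of 37 meeting it. Among the promoters read, genes that changed were thus found with CG-rich and with CG-poor ones. Whether the CG content bears on the changes was not tested.

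The comparison of each Tet1 hairpin with the scrambled hairpin asks which of these regulators change when Tet1 is depleted. Few did. With both hairpins Pax8, Tbx15, Neurog3, Wt1 and Irx2 rose, by 1.17-fold to 2.03-fold, and 0 of the 58 passed the threshold in the downward direction with either hairpin, although Nkx2-9 passed as a fall with shTet1#4 in 6 of 16 alternatives (given with that gene below). With shTet1#4, 5 genes rose, and with shTet1#5, 8 rose, since En1, En2 and Nkx2-9 were added. These calls rest on limma with Benjamini-Hochberg adjustment over all 21212 probe sets at a threshold of 0.05.

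As a share this was close to the array as a whole. The 5 of 58 with shTet1#4 are 8.62% of the members, where 11.6% of all probe sets passed (6.88% higher, 4.71% lower). The 8 with shTet1#5 are 13.8%, where 13.8% of all probe sets passed (8.37% higher, 5.46% lower). With the same sign for both hairpins 5 members (8.62%) and 8.81% of all probe sets passed (5.4% higher, 3.4% lower). Both comparisons use the same 3 scrambled arrays. Dim probe sets pass less often, with 5.35% and 5.55% of those not above the median in all scrambled arrays passing for shTet1#4 and shTet1#5, against 18.4% and 22.8% of the brighter ones. Of the 46 dimmer members 2 and 4 passed, and of the 12 brighter members 3 and 4. The median change over the 58 was -0.01 with shTet1#4 and 0.02 with shTet1#5 on the log2 scale, against -0.003 and -0.004 over all probe sets.

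All 3 arrays of a knockdown lay above all 3 scrambled arrays for 6 members with shTet1#4 (14.1% of all probe sets did so) and for 10 with shTet1#5 (17% of all). They lay below for 2 members with shTet1#4 (10.9% of all) and for 0 with shTet1#5 (11.9% of all), where 9 members (15.5%) had an unadjusted p under 0.05 with each hairpin, against 23.3% of all probe sets for shTet1#4 and 25.7% for shTet1#5.

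**Figure D3:**
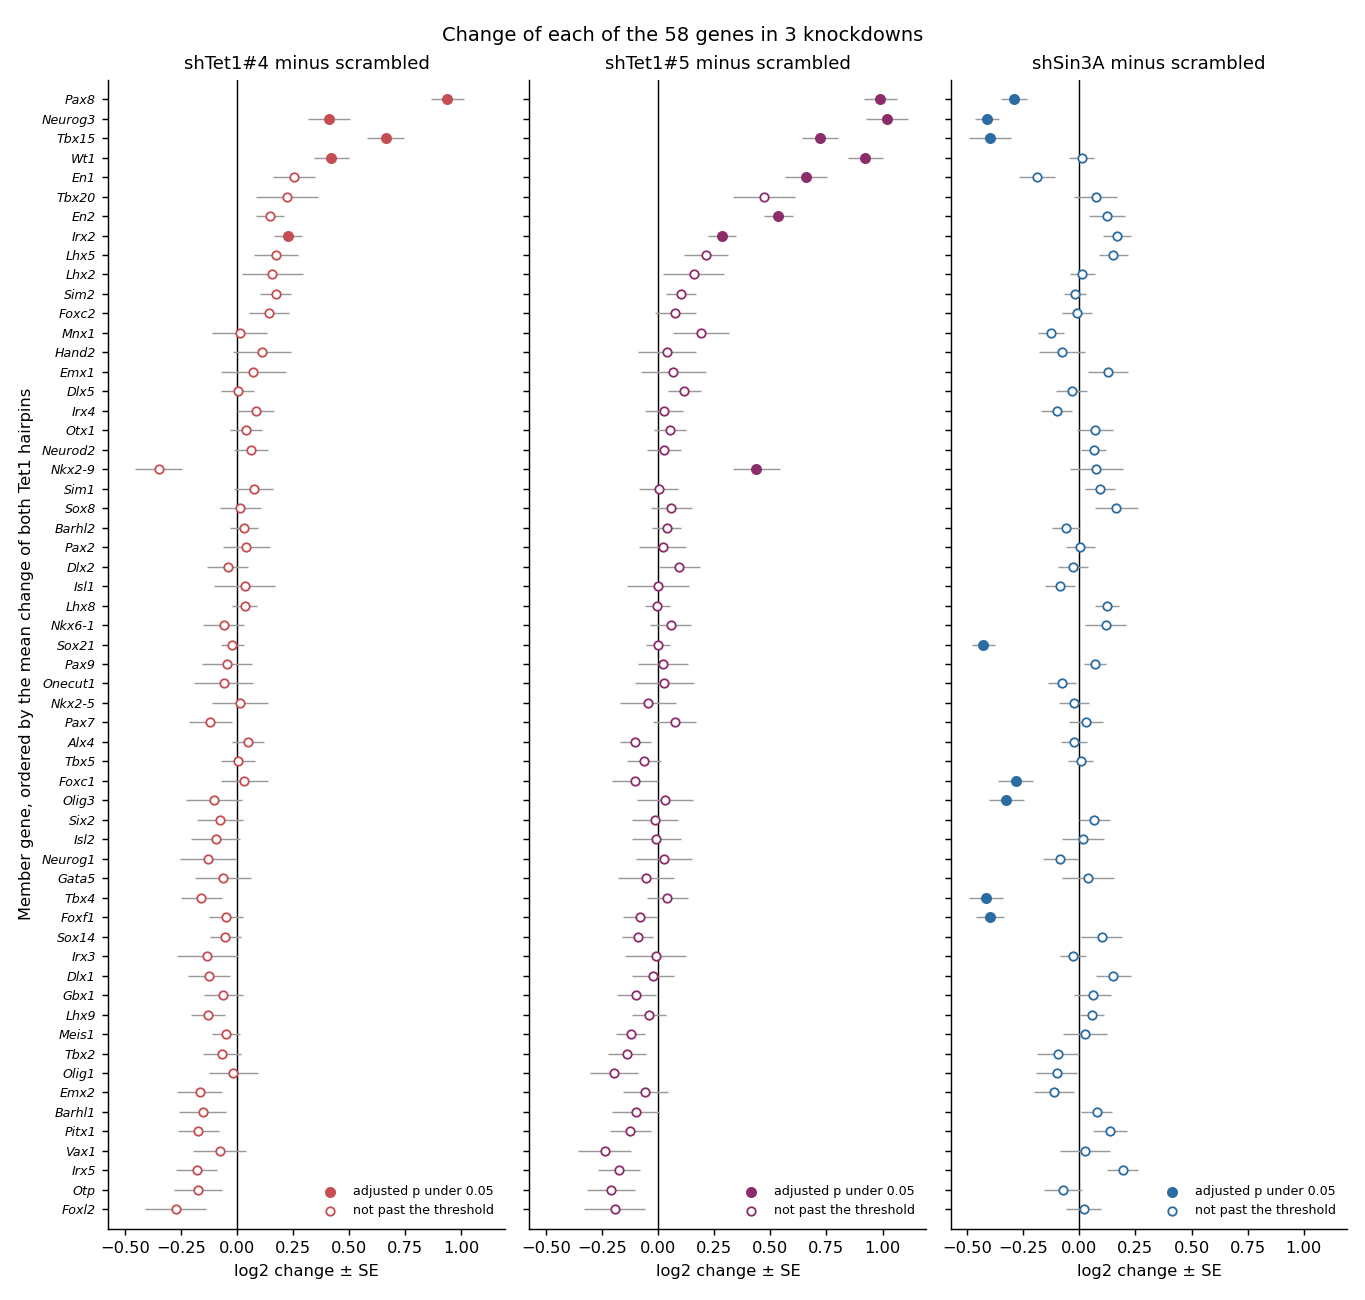
log2 change ± SE (x axis) of each of the 58 genes (rows, ordered by the mean change of both Tet1 hairpins) with shTet1#4, shTet1#5 and shSin3A, each against the scrambled arrays of its set (n = 3 arrays per group). Filled points passed at an adjusted p under 0.05: 5, 8 and 8 genes, to the right of 0 for the Tet1 hairpins and to the left of 0 for shSin3A, while most open points lie within 0.25 of 0.

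Pax8, the paired-box factor of thyroid and kidney, had log2 levels of 8.47, 8.59 and 8.53 with shTet1#4 and 8.49, 8.64 and 8.61 with shTet1#5, against 7.48, 7.70 and 7.60 with the scrambled hairpin. All 6 knockdown arrays lay above all 3 scrambled arrays, and both hairpins gave about the same level. The log2 changes were 0.94 ± 0.07 and 0.99 ± 0.07 (SE, limma adjusted p = 5.01e-05 and 4.55e-05), or 1.91-fold and 1.99-fold.

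Tbx15, a T-box factor of skeleton and skin patterning, was among the dimmer members and rose by a similar step with both hairpins. Its values were 6.15, 6.26 and 6.11 with shTet1#4 and 6.28, 6.17 and 6.25 with shTet1#5, against 5.59, 5.35 and 5.60 in scrambled arrays. The groups did not overlap, and the changes were 0.66 ± 0.08 and 0.72 ± 0.08 (SE, limma adjusted p = 0.000642 and 0.00038). Even after the rise Tbx15 stayed below the array median in all 6 knockdown arrays.

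Neurog3, the bHLH factor that commits pancreatic progenitors to the endocrine fate, was at 6.51, 6.46 and 6.69 with shTet1#4 and at 7.10, 7.30 and 7.10 with shTet1#5, against 6.25, 6.19 and 5.99 in scrambled arrays. The 3 groups did not overlap, and shTet1#5 lay highest. It rose by 0.41 ± 0.09 and 1.02 ± 0.09 (SE, limma adjusted p = 0.0196 and 0.000125), the second being 2.03-fold. With shTet1#5 Neurog3 was above the array median in all 3 arrays, which it was in no scrambled array. The shTet1#4 call did not hold once replicate 3 of the scrambled arrays (adjusted p = 0.0727) or of the shTet1#4 arrays (0.0755) was left out.

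Wt1, the zinc finger factor of kidney and gonad, followed the same order. It measured 7.88, 8.04 and 7.98 with shTet1#4 and 8.40, 8.47 and 8.54 with shTet1#5, against 7.54, 7.67 and 7.43 in scrambled arrays, again without overlap between the 3 groups. The changes were 0.42 ± 0.08 and 0.92 ± 0.08 (SE, limma adjusted p = 0.00706 and 8.64e-05). Irx2, an Iroquois homeobox gene of neural and limb patterning, had a smaller step, with 7.84, 7.85 and 7.84 with shTet1#4 and 7.83, 7.93 and 7.96 with shTet1#5, against 7.57, 7.71 and 7.58 in scrambled arrays. Its groups did not overlap with the scrambled one either, and the changes were 0.23 ± 0.06 and 0.29 ± 0.06 (SE, limma adjusted p = 0.0458 and 0.0136). The Irx2 call for shTet1#4 lay close to the threshold and was lost in 12 of 16 alternatives, while the change stayed between 0.18 and 0.27. It was lost without scrambled replicate 1 or 3 (adjusted p = 0.129 and 0.143) and without shTet1#4 replicate 1, 2 or 3 (0.123, 0.099 and 0.109). Leaving out shTet1#5 replicate 1, 2 or 3 also lost it (0.053, 0.0734 and 0.0598). So did centring (0.0535), repeated quantile normalization (0.0958), a replicate block (0.0691) and a fit with only the 2 groups (0.0854). For shTet1#5 the Irx2 call was lost without scrambled replicate 3 (0.0552) or shTet1#5 replicate 2 or 3 (0.0547 and 0.0564).

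The engrailed genes En1 and En2, homeobox regulators of the midbrain and hindbrain, passed with shTet1#5. En1 was at 7.66, 7.56 and 7.54 with shTet1#5 and at 7.09, 7.23 and 7.23 with shTet1#4, against 6.83, 7.15 and 6.81 in scrambled arrays, where replicate 2 stood above the other two and overlapped with shTet1#4. The changes were 0.66 ± 0.10 with shTet1#5 (SE, limma adjusted p = 0.00157) and 0.25 ± 0.10 with shTet1#4, which did not pass (adjusted p = 0.136). En2 had 7.38, 7.46 and 7.42 with shTet1#5 and 6.96, 7.04 and 7.08 with shTet1#4, against 6.80, 6.89 and 6.95 in scrambled arrays. Every shTet1#4 value of En2 lay above every scrambled value by a small margin, and the change of 0.15 ± 0.06 did not pass (adjusted p = 0.202), whereas that of 0.54 ± 0.06 with shTet1#5 did (0.000528). Without scrambled replicate 2 and shTet1#4 replicate 2, the arrays that stood apart, 7 members passed with shTet1#4 (6 higher and 1 lower, Nkx2-9), 10 with shTet1#5 and 6 with both. En1 was then among those for both (0.0247 with shTet1#4), and it also passed with shTet1#4 without scrambled replicate 2 alone (0.00987). The share of all probe sets that passed without these arrays is not given here.

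Nkx2-9 went apart between the hairpins. It measured 8.58, 8.79 and 8.85 with shTet1#5 and 7.93, 8.16 and 7.77 with shTet1#4, against 8.31, 8.33 and 8.26 in scrambled arrays, so that all shTet1#5 arrays lay above and all shTet1#4 arrays below the controls. The change with shTet1#5 was 0.44 ± 0.10 (SE, limma adjusted p = 0.0203), a call lost without scrambled replicate 1 or 3 (adjusted p = 0.0536 and 0.0725) or shTet1#5 replicate 2 or 3 (0.0763 and 0.0823). With shTet1#4 it was -0.35 ± 0.10 and did not pass (adjusted p = 0.0591), although it passed as a fall in 6 of 16 alternatives: after centring (0.0447), with repeated quantile normalization (0.0418), with only probe sets above the array median in a group (0.0274), with an intensity trend and robust variance (0.0491), without shTet1#4 replicate 2 (0.0166) and without both arrays that stood apart (0.0363). Over all 16 the adjusted p lay between 0.0166 and 0.189.

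**Figure D4:**
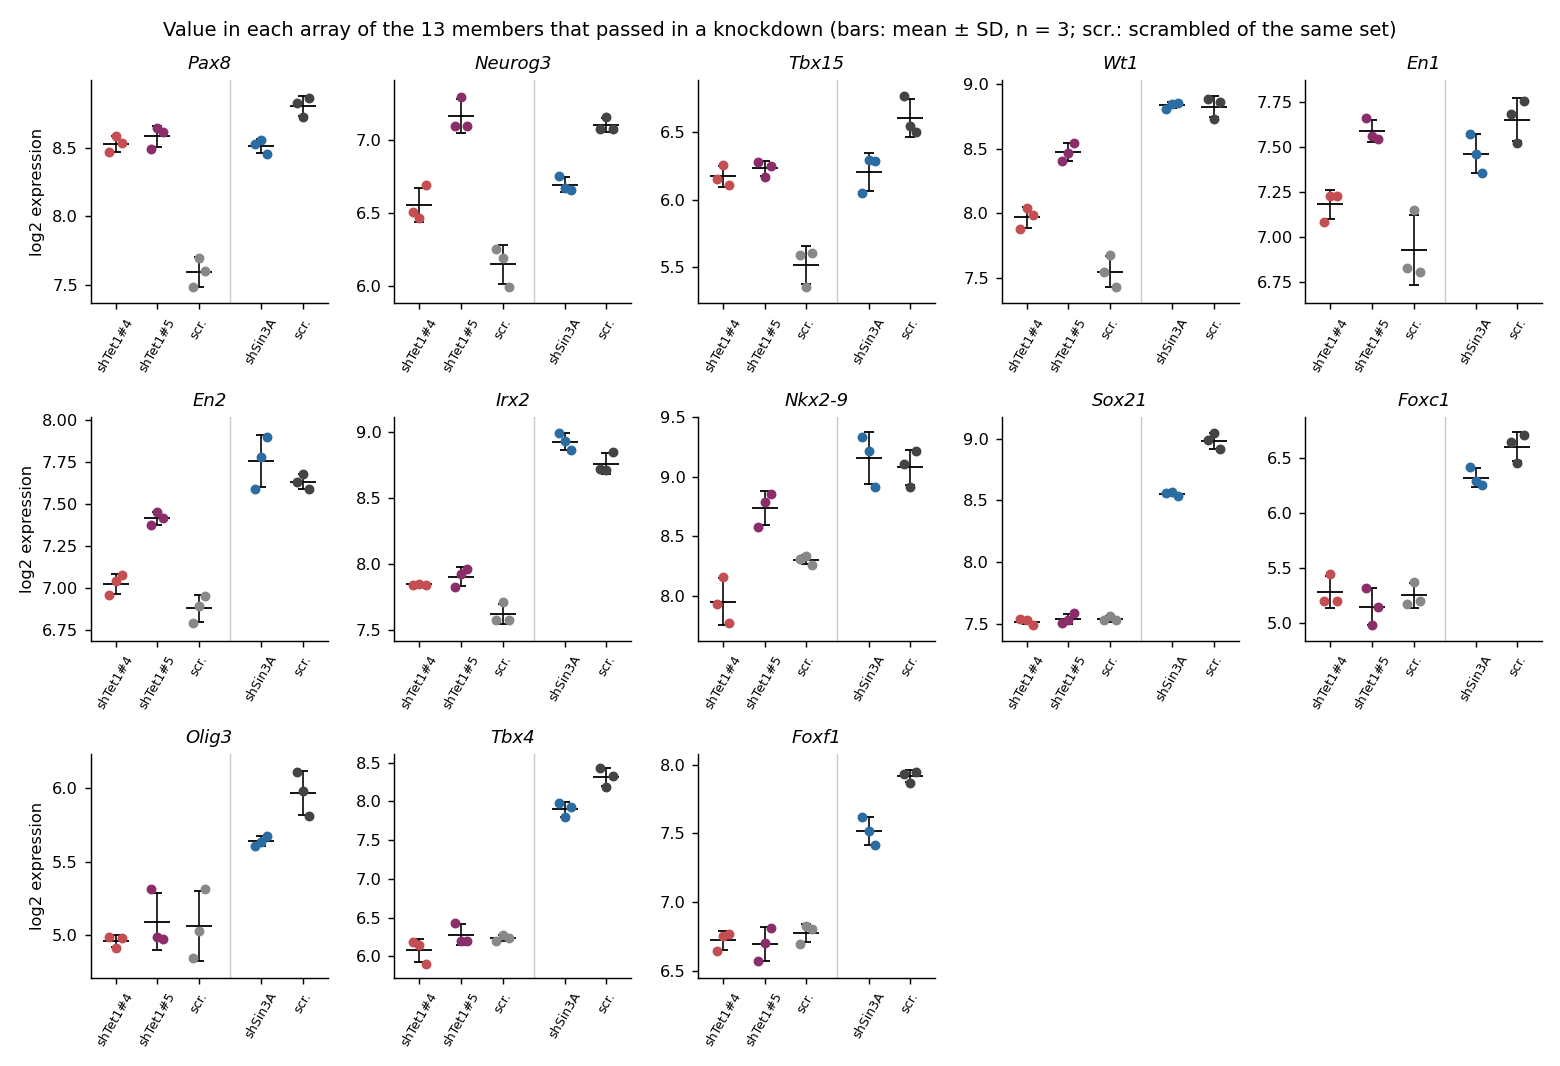
log2 expression (y axis) in every array for the 13 members that passed in at least 1 knockdown, with shTet1#4 and shTet1#5 left of the scrambled arrays of the Tet1 set, and shSin3A left of the scrambled arrays of the Sin3A set. Coloured points are arrays and black bars the mean ± SD (n = 3), and levels on both sides of the grey line are on scales that cannot be compared.

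The contrast of shTet1#5 with shTet1#4 asks where the hairpins differ. For Nkx2-9 the difference was 0.79 ± 0.10 (SE, limma adjusted p = 0.0277), or 1.73-fold higher with shTet1#5, and it was the only member that passed (0.141% of all probe sets did, 0.0566% higher and 0.0849% lower, and 5 members, 8.62%, had an unadjusted p under 0.05, against 8.66% of all probe sets). It was lost without scrambled replicate 1 or 3 (adjusted p = 0.0645 and 0.0553), without shTet1#4 replicate 1 or 3 (0.14 and 0.0891), without shTet1#5 replicate 1, 2 or 3 (0.14, 0.169 and 0.153), without both arrays that stood apart (0.0776) and with only these 2 groups in the fit (0.127). Neurog3 differed by 0.61 ± 0.09, Wt1 by 0.50 ± 0.08, En2 by 0.39 ± 0.06 and En1 by 0.41 ± 0.10, all higher with shTet1#5, and none of these 4 passed (adjusted p = 0.0517, 0.0537, 0.0652 and 0.192). Of these, Neurog3 passed in 2 of 16 alternatives, Wt1 in 4 and En2 in 1 (lowest adjusted p = 0.0169, 0.0187 and 0.0219, each with only probe sets above the array median in a group), while En1 passed in 0. Without scrambled replicate 2 alone Wt1 passed (0.0429). Pax8, Tbx15 and Irx2 differed by 0.05, 0.06 and 0.06 with SEs of 0.06 to 0.08.

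The Sin3A knockdown moved a partly different group of members, and all in the other direction. With shSin3A, Sox21, Tbx4, Neurog3, Foxf1, Tbx15, Olig3, Pax8 and Foxc1 fell, by 1.22-fold to 1.35-fold, and none of the 58 passed in the upward direction. The 8 genes are 13.8% of the members, where 24.8% of all probe sets passed (12.2% higher and 12.6% lower), so the share of lower calls was near the background and 0 higher calls stood against 12.2% of all probe sets. Of the 46 dimmer members 5 passed, where 12.4% of the dimmer probe sets did, and of the 12 brighter members 3 passed, where 37.8% of the brighter probe sets did. The median change over the 58 was 0.01, equal to that over all probe sets to 2 decimals, and 12 members (20.7%) had an unadjusted p under 0.05, against 36.0% of all probe sets.

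Sox21, a Sox factor of neural progenitors, had log2 levels of 8.56, 8.57 and 8.54 with shSin3A, against 8.99, 9.05 and 8.92 with the scrambled hairpin. The groups lay far apart for their spread, and the change was -0.43 ± 0.05 (SE, limma adjusted p = 0.000997). With the Tet1 hairpins Sox21 hardly differed from its controls, at -0.02 and -0.001 with an SE of 0.05. Its 9 arrays of the Tet1 set held only 6 distinct values, and 7.52716 recurred in each of the 3 groups. Such repeated values narrow the spread, so this SE may be too small. The same values enter its difference between the Tet1 and Sin3A effects, given below.

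Tbx4, which with Tbx5 patterns limbs and lung, was at 7.97, 7.79 and 7.92 with shSin3A, against 8.43, 8.19 and 8.33 (change -0.42 ± 0.08, SE, limma adjusted p = 0.00615). Foxf1, a forkhead factor of lung and gut mesenchyme, was at 7.61, 7.52 and 7.42, against 7.93, 7.87 and 7.95 (change -0.40 ± 0.06, adjusted p = 0.00308). In both genes every shSin3A array lay below every scrambled array, and neither passed with a Tet1 hairpin (Tbx4 -0.16 and 0.04, Foxf1 -0.05 and -0.08).

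Neurog3 measured 6.75, 6.67 and 6.66 with shSin3A, against 7.07, 7.16 and 7.08, a change of -0.41 ± 0.05 (SE, limma adjusted p = 0.00133). Pax8 measured 8.53, 8.56 and 8.45, against 8.83, 8.72 and 8.87, a change of -0.29 ± 0.06 (adjusted p = 0.009). Tbx15 was at 6.05, 6.29 and 6.29, against 6.77, 6.55 and 6.50, a change of -0.40 ± 0.09 (adjusted p = 0.0179) that was lost without scrambled replicate 1 (0.0537). None of these 3 genes had overlapping groups.

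The last 2 calls were less firm. Olig3 was at 5.61, 5.63 and 5.67 with shSin3A, against 6.11, 5.98 and 5.81 (change -0.33 ± 0.08, SE, limma adjusted p = 0.018), and the call was lost without scrambled replicate 1 or 2 (0.052 and 0.053) or shSin3A replicate 2 (0.0623). Foxc1, a forkhead factor of eye and skull, was at 6.42, 6.29 and 6.25, against 6.64, 6.46 and 6.71 (change -0.28 ± 0.08, adjusted p = 0.033), and the call was lost without scrambled replicate 1 or 3 (0.104 and 0.0987) or shSin3A replicate 2 or 3 (0.108 and 0.0942). Without scrambled replicate 1 of the Sin3A set 5 of the 58 passed. When only probe sets above the array median in a group entered the fit, 12 members were left and 4 of them passed, 3 lower (Pax8, Tbx4 and Sox21) and 1 higher (Irx2). The shares of all probe sets that passed in these settings are not given here.

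All 3 shSin3A arrays lay below all 3 scrambled arrays for 8 members (20.1% of all probe sets did so) and above them for 3 (20.4% of all).

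Pax8, Tbx15 and Neurog3, 3 of the 58 members, rose with both Tet1 hairpins and fell with shSin3A. These are 3 of the 5 members that rose with both Tet1 hairpins and 3 of the 8 that fell with shSin3A. Over the array 212 probe sets (0.999%) did the same, 18.5% of the 1146 that rose with both Tet1 hairpins and 7.94% of the 2669 that fell with shSin3A. In the same direction by both Tet1 hairpins and shSin3A, 0 of the 58 members were called. Over the array 358 probe sets (1.69%) rose and 284 (1.34%) fell in all of these comparisons, so 0 of 58 is near that share. The Tet1 and Sin3A comparisons use different scrambled arrays. Sin3a was itself lower with both Tet1 hairpins and Tet1 higher with shSin3A, as given above, and the part of these shifts in the opposite changes of the 3 genes was not tested.

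The difference itself, the mean Tet1 change minus the Sin3A change from a fit of all 15 arrays, passed for 9 members (15.5%), 8 positive and 1 negative, where 20% of all probe sets passed (11.3% positive and 8.71% negative). It was 1.25 ± 0.09 for Pax8, 1.13 ± 0.11 for Neurog3 and 1.09 ± 0.12 for Tbx15 (SE, limma adjusted p = 3.91e-07, 5.01e-06 and 1.99e-05). Wt1 (0.66 ± 0.09, adjusted p = 0.00016) and En1 (0.64 ± 0.12, 0.00171) had a positive difference with a rise in the Tet1 knockdown and changes of 0.01 and -0.19 with shSin3A that did not pass. Sox21 (0.42 ± 0.07, adjusted p = 0.000369), Tbx4 (0.36 ± 0.12, 0.0464) and Foxf1 (0.33 ± 0.09, 0.0217) had one with a fall in the Sin3A knockdown. Irx5, an Iroquois gene of the heart, had the negative one, -0.37 ± 0.11 (adjusted p = 0.0312), with changes of -0.18 and -0.18 in the Tet1 knockdowns and 0.19 in the Sin3A knockdown, none of which passed singly.

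Of these 9 differences those of Pax8, Tbx15, Neurog3, Wt1, En1 and Sox21 passed under every alternative in which the gene was tested. The Tbx4 difference was lost without scrambled replicate 1, 2 or 3 of the Tet1 set (adjusted p = 0.0926, 0.0507 and 0.0815), shTet1#4 replicate 1 or 2 (0.0712 and 0.0644), shTet1#5 replicate 1 (0.0631), scrambled replicate 1 or 3 of the Sin3A set (0.129 and 0.0886), shSin3A replicate 2 or 3 (0.128 and 0.0715), or both arrays that stood apart (0.0675), and after centring (0.0533). That of Foxf1 was lost without scrambled replicate 1 of the Tet1 set (0.0563), scrambled replicate 1 or 3 of the Sin3A set (0.0512 and 0.055) or shSin3A replicate 3 (0.0652). That of Irx5 was lost without scrambled replicate 2 or 3 of the Tet1 set (0.0688 and 0.0698), shTet1#4 replicate 1 (0.0508), shTet1#5 replicate 2 (0.0502), scrambled replicate 1 or 2 of the Sin3A set (0.0715 and 0.0798) or shSin3A replicate 1 or 3 (0.0692 and 0.0802).

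**Figure D5:**
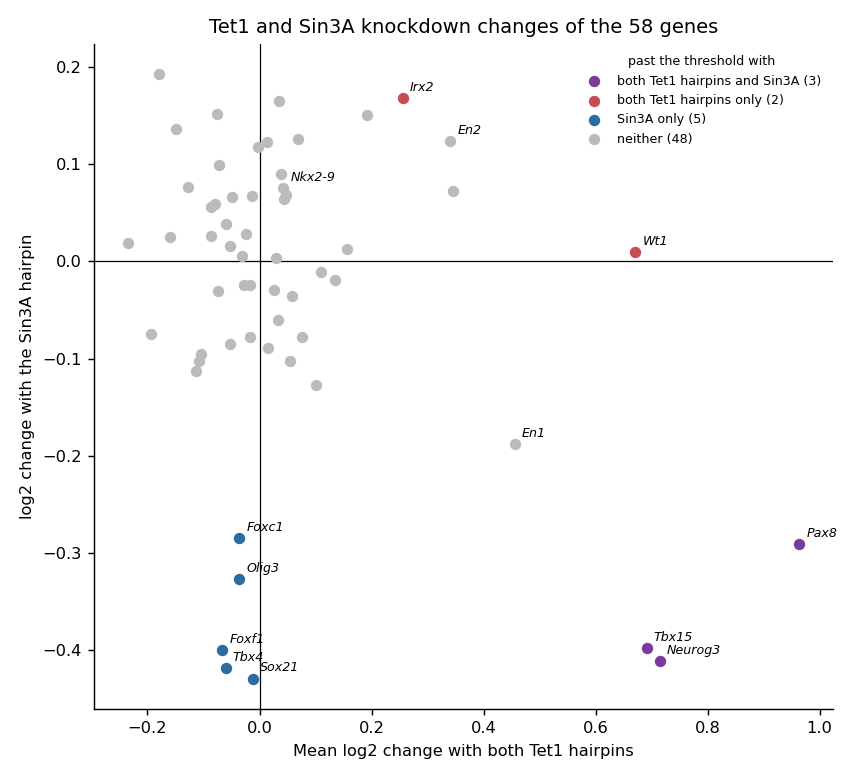
Mean log2 change with both Tet1 hairpins (x axis) against the log2 change with shSin3A (y axis), 1 point per gene for the 58 genes, coloured by the comparisons passed. Pax8, Tbx15 and Neurog3 sit at the lower right, the 5 genes called with shSin3A alone lie near 0 on the x axis, and En1, En2 and Nkx2-9, grey here, passed with shTet1#5 alone.

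The remaining 45 of the 58 passed in no knockdown, among them all 6 LIM homeobox genes (Lhx2, Lhx5, Lhx8, Lhx9, Isl1 and Isl2), the 3 Dlx genes of forebrain and face, and Gata5. Their log2 changes ran from -0.28 to 0.22 with shTet1#4, from -0.24 to 0.47 with shTet1#5 and from -0.13 to 0.19 with shSin3A. The SEs of these changes were 0.06 to 0.15 in the Tet1 set and 0.05 to 0.12 in the Sin3A set, so small changes of single genes would not have been detectable with 3 arrays a group.

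The widest of these was Tbx20, a T-box factor of the heart, with 6.53, 6.40 and 6.67 with shTet1#5 and 6.05, 6.22 and 6.58 with shTet1#4, against 6.01, 6.26 and 5.91 in scrambled arrays. All shTet1#5 arrays lay above the scrambled ones, and its change of 0.47 ± 0.14 (SE, limma adjusted p = 0.0522) passed in 8 of 15 alternatives (adjusted p between 0.023 and 0.174 over all of them). Foxl2, the forkhead factor of the ovary, followed at -0.28 ± 0.13 with shTet1#4 and -0.20 ± 0.13 with shTet1#5, then Otp at -0.17 ± 0.11 and -0.21 ± 0.11, Lhx5 of the forebrain at 0.17 ± 0.10 and 0.21 ± 0.10, and Irx5 at -0.18 ± 0.09 with each hairpin (SE). With shSin3A the widest were Irx5 at 0.19 ± 0.07, Sox8, a Sox factor of the neural crest and testis, at 0.16 ± 0.09, Dlx1 at 0.15 ± 0.08, Lhx5 at 0.15 ± 0.07 and the hindlimb factor Pitx1 at 0.14 ± 0.08.

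Members that are neighbours in the genome gave values that went with and against each other. Tbx2 and Tbx4, with no annotated gene between them, had changes of -0.07 and -0.16 with shTet1#4, -0.14 and 0.04 with shTet1#5, and -0.10 and -0.42 with shSin3A, where only Tbx4 passed. Foxf1 and Foxc2, separated by Mthfsd, had changes of -0.40 and -0.01 with shSin3A, where only Foxf1 passed. Dlx1 and Dlx2, separated by Dlx1as, passed in no comparison.

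Relatives of the members in the same factor families but outside the list were counted beside them. Of 58 measured relatives, 9 rose and 3 fell with both Tet1 hairpins, against 5 and 0 of the 58 members, and 6 rose and 7 fell with shSin3A, against 0 and 8. Over all probe sets 5.4% rose and 3.4% fell with both Tet1 hairpins, and 12.2% rose and 12.6% fell with shSin3A. Vax2, a homeobox gene of the ventral eye, rose by 1.34 and 1.19 on the log2 scale, Eomes, a T-box gene of trophoblast and mesendoderm, by 1.28 and 1.40, and Tbx3, a T-box gene of stem cells and limbs, by 0.98 and 0.69 with shTet1#4 and shTet1#5. Otx2, a homeobox gene of epiblast and forebrain, fell by 0.32 and 0.39 and, with shSin3A, by 1.09 (limma adjusted p = 6.66e-05). The lists were not compared by a test, so no difference between them is drawn. In their median change the relatives stood at 0.003 and 0.02 with the Tet1 hairpins and at 0.04 with shSin3A.

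Polycomb components and a second list, headed trithorax and H3K27 demethylase genes, were well expressed. In the scrambled arrays of the Tet1 set 30 of 34 and 15 of 15 lay above the array median. The second list also held Kdm5b, an H3K4 demethylase gene. Among the 34 Polycomb components 2 rose and 1 fell with both Tet1 hairpins, and 2 rose and 5 fell with shSin3A. The shares over all probe sets, for both lists, are those given with the relatives. Cbx2, a chromobox subunit of Polycomb repressive complex 1, rose by 0.39 with shTet1#4 and by 0.49 with shTet1#5 (limma adjusted p = 0.00392 and 0.00104). With shSin3A Phc3, a Polyhomeotic subunit, rose by 0.47 and Scmh1 fell by 0.30 (limma adjusted p = 0.0028 and 0.00424). Of the 15 genes of the second list 1 rose with both Tet1 hairpins, Wdr5 of the H3K4 methyltransferase complexes (0.50 and 0.49), and 1 fell. With shSin3A 2 of the 15 rose and 2 fell. Those that rose with shSin3A were the H3K27 demethylase gene Kdm6b (0.44, limma adjusted p = 0.00104) and the methyltransferase gene Kmt2c (0.55, 0.00179), and Setd1a was one of the 2 that fell (-0.25, 0.00706).

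Markers of stem cells and of other cell types moved in the same comparisons. The mean log2 level of 10 stem cell markers was 11.57 to 11.63 in scrambled arrays of the Tet1 set. It was 11.66 to 11.71 with shTet1#4 and 11.61 to 11.62 with shTet1#5. In the Sin3A set it was 12.13 to 12.19 with shSin3A, against 12.12 to 12.14. Of the 10, 1 rose with both Tet1 hairpins and 1 fell with shTet1#5, while 2 rose and 1 fell with shSin3A. The mean log2 level of 12 primitive endoderm markers was 6.98 to 7.08 in shTet1#4 arrays and 6.95 to 7.01 in shTet1#5 arrays, against 6.72 to 6.94 in scrambled arrays, and 2 of the 12 rose with both hairpins, Sox7 and Lama1. The mean of 12 trophectoderm markers was 7.39 to 7.41 and 7.42 to 7.48, against 7.46 to 7.60, with 3 of 12 higher and 4 lower. The mean of 8 neural markers was 7.12 to 7.18 and 7.15 to 7.19, against 7.22 to 7.27, with 0 higher and 2 lower. The mean of 13 fibroblast markers was 6.53 to 6.64 and 6.55 to 6.64, against 6.59 to 6.75, with 2 higher and 2 lower. With shSin3A the fibroblast mean was 7.83 to 7.94, against 8.07 to 8.15 (1 higher, 4 lower), the trophectoderm mean 8.57 to 8.63, against 8.75 to 8.81 (2 higher, 5 lower), the primitive endoderm mean 7.96 to 7.99, against 7.91 to 7.97 (2 higher, 1 lower), and the neural mean 7.98 to 8.06, against 7.97 to 8.03 (1 higher, 2 lower). For the marker counts too, the shares over all probe sets are those given above. The part of these cell types in the changes of the 58 genes was not tested.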

How the data were processed

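The authors deposited log2 expression values of 21212 probe sets on 15 arrays (5 groups of 3). The submitters' processing notes name affy, RMA and limma without versions. The genome build was not given in the sources used here. Among the 9 arrays of the Tet1 set 49.1% of probe sets, and 30 of the 58 members, had repeated values, which no member had in the Sin3A set. Such ties narrow the spread between arrays.

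Symbols came from the platform annotation (18786 probe sets with 1 symbol, 6 with several, 2420 unnamed here). Tests were two-sided and used limma 3.58.1 (lmFit, then eBayes) under R 4.3.3, with Benjamini-Hochberg adjustment over all probe sets: 9 arrays for the Tet1 comparisons, 6 for Sin3A, and 15 for their difference. The procedure was tested on simulated data.

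Full values are given for every member past the threshold, the 5 brightest, the 5 dimmest and the 5 widest changes among the others, and list genes by adjusted p, at most 4 a list. One result that this rule would name is not reported here. The members and lists were chosen with earlier results of these data known. Alternatives were scaling, a filter on dim probe sets, a replicate block, fewer groups in the fit, the variance model and left-out arrays. The number of arrays limits the precision.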

Additional observations from a re-analysis of the deposited data

Results flagged for a closer look

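For 1 gene the effects of the Tet1 hairpins differed by the test of the difference itself. Nkx2-9 was higher with shTet1#5 than with shTet1#4 by 0.79 on the log2 scale (limma adjusted p = 0.0277, n = 3 arrays per group), and the call did not hold when single arrays were left out, as given above.

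For 9 genes the mean Tet1 effect differed from the Sin3A effect. The log2 differences were 1.25 for Pax8, 1.13 for Neurog3, 1.09 for Tbx15, 0.66 for Wt1, 0.64 for En1, 0.42 for Sox21, 0.36 for Tbx4, 0.33 for Foxf1 and -0.37 for Irx5. For Pax8, Tbx15 and Neurog3 the 2 effects also had opposite signs that each passed. The Tet1 and Sin3A sets differ in their scale, and the set and the knockdown cannot be told apart in these differences beyond what each set's own scrambled arrays take out.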

How the results depend on the processing

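Of 31 calls of a member in a comparison, 20 held under every alternative run, 11 were lost under at least 1, and 0 changed sign. From the results that did not pass, 25 were picked and followed singly, and 6 of these passed under at least 1 alternative, all named above. Results outside these 25 were not followed singly, and some of them also passed under an alternative, such as Irx2 with shSin3A. With single arrays left out in turn, 3 to 7 members passed with shTet1#4, 6 to 10 with shTet1#5, 3 to 7 with both, 5 to 8 with shSin3A, 0 to 2 between the Tet1 hairpins and 6 to 9 for the Tet1 effect minus the Sin3A effect. The share of all probe sets that passed is not given for any alternative, here or above. Shifts in the member counts can therefore not be told apart from shifts over the whole array. The counts for shTet1#4 and for both hairpins were 3 without scrambled replicate 3 or shTet1#4 replicate 3, and the cause was not tested. Whether replicate numbers pair the arrays could not be settled, since same-numbered arrays of the Tet1 set deviated together at r between -0.287 and 0.517. The highest of these, between scrambled replicate 2 and shTet1#4 replicate 2, was also the highest of all pairs between groups of that set. With a replicate block 4, 8, 4, 7, 0 and 9 members passed in that order of comparisons, against 5, 8, 5, 8, 1 and 9 without it, and the calls lost were Irx2 with shTet1#4 (adjusted p = 0.0691), Tbx15 with shSin3A (0.0538) and Nkx2-9 between the hairpins (0.0876). The single call between the hairpins became 2 after centring, 3 with an intensity trend and robust variance, 0 with only the 2 groups in the fit, 0 without both arrays that stood apart, and 4 when only probe sets above the array median in a group were kept. That filter kept 12 members of the Sin3A comparison, of which 4 passed, so calls on dim genes could not be made there. In the scrambled arrays 28 members (Tet1 set) and 29 (Sin3A set) lay above the 40th percentile and 1 and 5 above the 60th, against 12 and 12 above the median. The alternative of averaging probe sets was not run, since every member had 1 probe set. A dim signal limits what can be said of most members.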
